A study of Hapsidospora chrysogena with 9 samples.

Results

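The comparison described here sets the AcmybA knockout of the filamentous fungus Hapsidospora chrysogena, also called Acremonium chrysogenum, against the wild type, using 6 of the 9 RNA-seq libraries of the series. The knockout, labelled ∆AcmybA, and the wild type, labelled WT, each have 1 library of mycelium at 48, 72 and 96 h of culture in LPE medium, and the libraries were paired by time. The other 3 libraries, from the overexpression strain AcmybAOE at the same times, entered the residual spread of the main fit but not its strain difference. With a knockout or wild-type library left out, they also bore on that difference through the time effects. Their values are quoted beside some genes as description. No allele or treatment beyond the strain is given in the labels, which do not say how much of AcmybA was removed, whether the knockout is a single transformant, or whether cultures were pooled. With 1 library per strain and time, nothing here measures the spread between repeated cultures.

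A. chrysogenum is the industrial source of cephalosporin C, a beta-lactam antibiotic built from a tripeptide by nonribosomal synthesis and then reshaped by ring-forming and ring-expanding enzymes. Myb transcription factors bind DNA through Myb repeats. In Aspergillus nidulans the Myb-type protein FlbD belongs to the upstream regulators of conidiation, the making of asexual spores. The title of the series describes AcmybA as a repressor of both conidiation and antibiotic output, and the knockout comparison asks which transcripts change when it is missing.

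Values are FPKM, in which fragment numbers are divided by transcript length and by library size. The table lists 8899 genes by protein identifiers that run without a gap in number, with no names, and no table pairing them with names was used. Cephalosporin, conidiation and other gene lists therefore matched 0 genes, the mycelial identity of the samples could not be checked against markers, and AcmybA itself could not be looked up. The number of genes listed at 0 in each knockout library yet at 1 FPKM or more in each wild-type library was 0. A looser pattern held for 4 genes, which were at 0 in all 3 knockout libraries and above 0 in all 3 wild-type libraries, none of them above 3.0 FPKM in any wild-type library. Summed FPKM ran from 1013293 to 1066818 in the knockout libraries and from 972960 to 1053504 in the wild-type libraries. Sequencing depth is not given in the sources used here. Genes listed at 0 numbered 302, 477 and 430 in the knockout at 48, 72 and 96 h, and 503, 430 and 424 in wild type. The tests kept the 8357 genes that reached 1 FPKM in at least 3 of the 6 libraries; of the 542 others, 170 were at 0 in all 6. The 112 genes just inside this limit, at 1 FPKM or more in exactly 3 libraries, had a median highest value of 3.66 FPKM, and the 135 just outside it, with 2 such libraries, one of 3.0 FPKM.

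Across the tested genes, the knockout and wild-type libraries of the same time differed about as much at each time. The SD of their log2(FPKM + 1) difference was 0.885 at 48 h, 0.876 at 72 h and 0.891 at 96 h. The nearest wild-type library to the knockout at 72 h was wild type at 96 h, with r = 0.915 over 8357 genes, ahead of wild type at 72 h with r = 0.898. The knockout at 48 h was nearest to wild type at 48 h among the wild-type libraries (r = 0.902), and the knockout at 96 h to wild type at 96 h (r = 0.894). Within a strain, the 72 and 96 h libraries correlated at 0.927 in the knockout and 0.952 in wild type. The knockout at 48 h correlated at 0.922 and 0.887 with the knockout at 72 and 96 h. Wild type at 48 h correlated less with wild type at 72 and 96 h (0.88 and 0.881) than with the knockout at 48 h (0.902). The widest gap was between the knockout at 96 h and wild type at 48 h (r = 0.812, SD of the difference 1.23). Genes are not independent replicates, so these values describe the libraries only.

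In the knockout, 105 genes were higher and 86 were lower than in wild type across the 3 times, or 1.26% and 1.03% of the 8357 tested. A gene was called at a Benjamini-Hochberg adjusted p under 0.05 in a limma fit of strain plus time, in which the residual is departure from additive strain and time effects. The higher genes moved further. Their log2 fold changes, on the log2(FPKM + 1) scale, ran from 0.92 to 5.83 with a median of 2.36, while those of the lower genes ran from -4.00 to -0.94 with a median of -1.75. Of the 105 higher genes, 35 had a change of at least 3 on that scale, and of the 86 lower genes 7 had one of -3 or further. Over all tested genes the median log2 fold change was 0.0457 and the median SE 0.248. At an unadjusted p under 0.05, limma gave 677 higher and 611 lower genes, together 15.4% of those tested.

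The counts depended on single libraries. Without wild type at 72 h there were 28 higher and 15 lower genes, without wild type at 96 h 33 and 19, and without wild type at 48 h 44 and 45. Without the knockout at 48, 72 or 96 h there were 54 and 39, 71 and 33, and 34 and 29. Without overexpression at 72 h there were 64 and 37. Of the 191 genes, 33 were called whichever of the 9 libraries was left out, 21 of them higher and 12 lower.

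**Figure D1:**
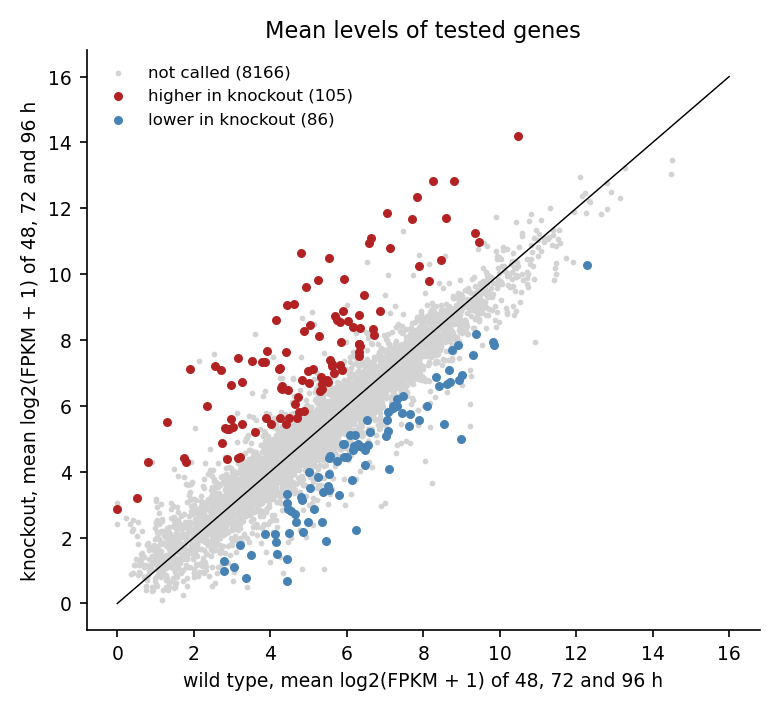
Mean log2(FPKM + 1) over 48, 72 and 96 h for each of the 8357 tested genes, knockout on the vertical and wild-type on the horizontal axis, with the 105 genes called higher in red, the 86 called lower in blue and the line of equality in black. The red points reach further from the line than the blue ones and extend to the most abundant transcripts.

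The largest log2 fold changes among the genes called with each library left out in turn belonged to KFH42174.1 and KFH41941.1 on the higher side. KFH42174.1 had 54.9, 138 and 336 FPKM in knockout mycelium at 48, 72 and 96 h, against 0.429, 10.9 and 2.0 FPKM in wild type. Its lowest knockout value was above its highest wild-type value. The strain effect on the log2 scale was 5.21 ± 0.58 (SE; limma adjusted p = 0.00879). The call ended without all 48 h libraries (adjusted p = 0.0533 in limma), without all 96 h libraries (0.0518) and with no time term (0.072).

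KFH41941.1 had 1490, 6030 and 5750 FPKM in knockout mycelium at 48, 72 and 96 h, against 27.7, 225 and 364 FPKM in wild type. It was thus already more abundant in the knockout at 48 h than in any wild-type library. The effect on the log2 scale was 4.80 ± 0.44 (SE; limma adjusted p = 0.0047). This call ended without all 72 h libraries (limma adjusted p = 0.0512) and with no time term (0.164).

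On the lower side the same rule gave KFH42220.1 and KFH47843.1. KFH42220.1 had 61.4, 34.0 and 13.9 FPKM in knockout mycelium at 48, 72 and 96 h, against 964, 396 and 350 FPKM in wild type. KFH47843.1 had 5.89, 3.01 and 2.77 FPKM in the knockout, against 168, 61.0 and 39.3 FPKM in wild type. For both genes each later library of a strain was lower than the one before, and the strains did not overlap. KFH42220.1 had an effect of -4.00 ± 0.28 on the log2 scale (SE; limma adjusted p = 0.00328) and KFH47843.1 one of -4.00 ± 0.31 (SE; limma adjusted p = 0.00398). The call of KFH42220.1 ended in 1 of 22 alternatives, with no time term (adjusted p = 0.0586 in limma), and that of KFH47843.1 in 0 of 22.

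The genes called higher took a large part of the knockout's transcript pool. Their summed FPKM came to 3.84%, 10.04% and 14.9% of knockout FPKM at 48, 72 and 96 h, against 0.328%, 1.64% and 1.77% of the wild-type libraries. The genes called lower came to 0.552%, 0.587% and 0.414% of the knockout libraries, against 1.97%, 1.96% and 1.63% of the wild-type libraries. These genes were chosen on the same libraries, so the shares give size and are not a test. The 5 most abundant of the 105 higher genes, picked in each strain separately, held 52.5% of the group's summed FPKM in the knockout and 46.5% in wild type.

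Among the called genes, KFH43806.1 and KFH41895.1 gained the most FPKM in the knockout. KFH43806.1 had 7680, 25700 and 32900 FPKM in knockout mycelium at 48, 72 and 96 h, against 237, 3640 and 3440 FPKM in wild type. It was the most abundant transcript of the knockout at 72 and 96 h, with 2.5% and 3.08% of summed FPKM, and ranked 24 and 21 in wild type at those times. At 48 h it ranked 6 in the knockout and 768 in wild type. The strain effect was 3.70 ± 0.51 on the log2 scale (SE; limma adjusted p = 0.0168). The call ended in 8 of 22 alternatives, among them without any of the 3 wild-type libraries (adjusted p from 0.0645 to 0.0939 in limma) and without the knockout at 96 h (0.0601).

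KFH41895.1 had 2270, 7390 and 23300 FPKM in knockout mycelium at 48, 72 and 96 h, against 31.7, 1900 and 1410 FPKM in wild type. It ranked 36, 7 and 2 in the knockout and 4842, 55 and 79 in wild type, so the strains differed most in rank at 48 h. Its strain effect of 4.04 ± 0.76 on the log2 scale was called only narrowly (SE; limma adjusted p = 0.0465). In 17 of 22 alternatives the call ended, with adjusted p over all of them from 0.0106 to 0.517 in limma. It ended without the knockout at 48 h (limma adjusted p = 0.0888) and at 96 h (0.167). It also ended without any 1 of the 3 wild-type libraries (limma adjusted p = 0.145, 0.135 and 0.16 at 48, 72 and 96 h). Without both of these genes, the higher group still held 2.85%, 6.82% and 9.62% of the knockout libraries, against 0.302%, 1.11% and 1.27% of the wild-type libraries.

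The largest losses in FPKM were those of KFH48817.1 and KFH44146.1. KFH48817.1 had 1610, 1580 and 743 FPKM in the knockout, against 5810, 5560 and 3820 FPKM in wild type, with no overlap and a log2 effect of -2.01 ± 0.31 (SE; limma adjusted p = 0.0228). KFH44146.1 had 115, 271 and 459 FPKM in the knockout, against 309, 1750 and 1360 FPKM in wild type, with a log2 effect of -1.89 ± 0.29 (SE; limma adjusted p = 0.0218). Its knockout value at 72 h lay below wild type at every time, but its value at 96 h lay above wild type at 48 h, so the strains overlapped. Each of these calls ended in 11 of 22 alternatives, with limma adjusted p up to 0.22 and 0.465. For KFH48817.1 it ended without any 1 of the 6 knockout and wild-type libraries (0.0553 to 0.113 in limma), and for KFH44146.1 without any of them but wild type at 48 h (0.0587 to 0.0955).

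**Figure D2:**
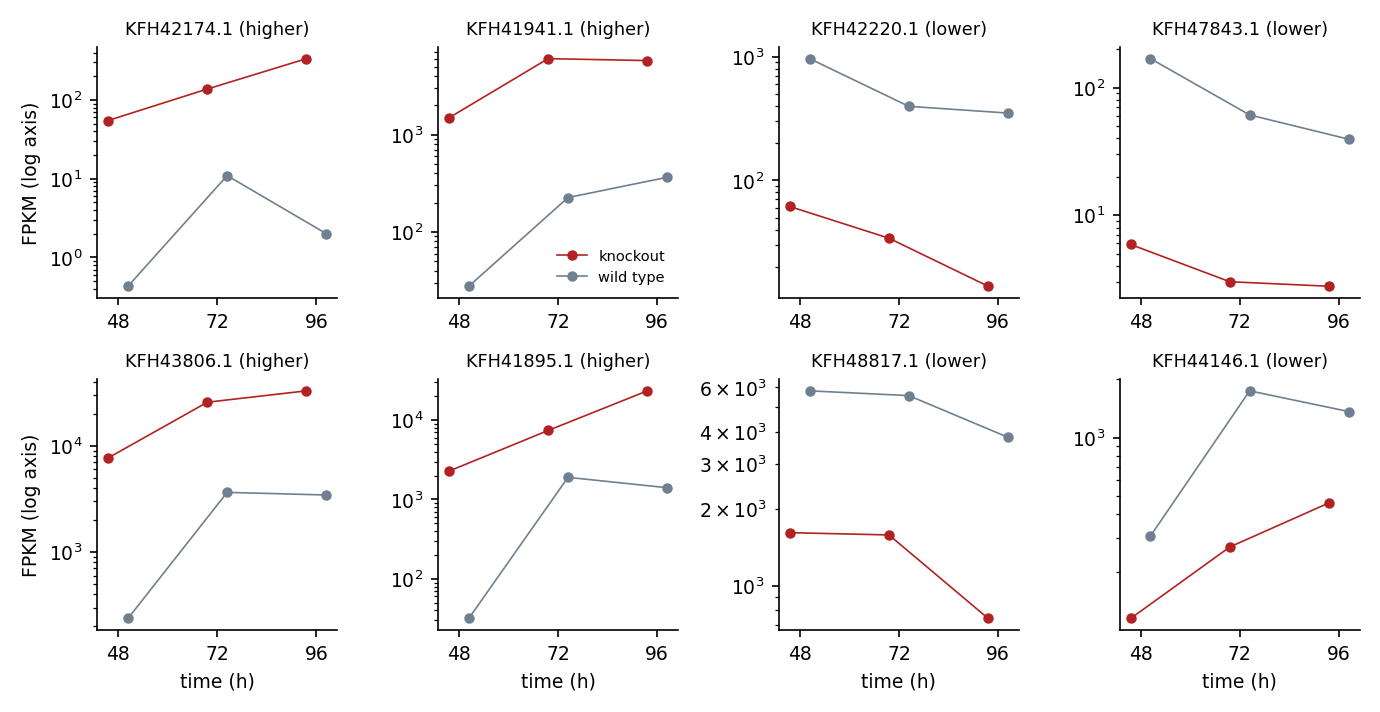
FPKM on a log axis by culture time in h for the 4 genes of largest stable fold change (top row) and the 4 of largest FPKM change (bottom row), knockout in red and wild type in grey, each point 1 library and lines joining libraries of a strain. In every panel the knockout point lies on the same side of the wild-type point at all 3 times, with KFH43806.1 at 7680 to 32900 FPKM in the knockout and 237 to 3640 FPKM in wild type.

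Higher genes were found most often among abundant transcripts. Of the 130 tested genes with a mean of 1000 FPKM or more over the 6 libraries, 13 were called higher and 1 lower, or 10% and 0.769%. Of the 3439 genes at 10 to 50 FPKM, 25 were higher and 36 lower, and of the 1058 genes at 1 to 10 FPKM 2 were higher and 8 lower. The mean includes the knockout libraries, so a gene that is high in the knockout is moved into a higher class by that. The 100 most abundant transcripts of the knockout at 48, 72 and 96 h held 7, 17 and 20 of the higher genes, while those of wild type held 0, 3 and 3. The median SE was 0.385 at 1 to 10 FPKM, 0.219 at 50 to 200 FPKM, 0.264 at 200 to 1000 FPKM and 0.372 at 1000 FPKM or more, so both ends of the range had larger errors than the middle.

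**Figure D3:**
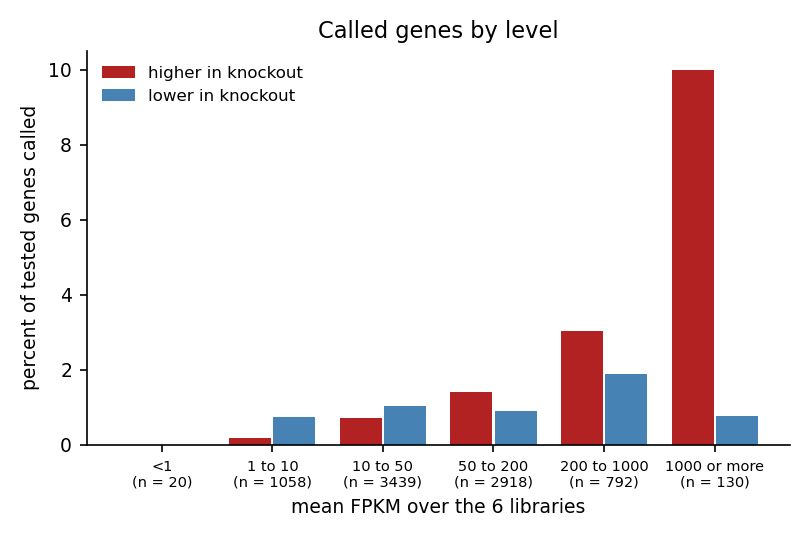
Percent of tested genes called higher (red) or lower (blue) in the knockout, by class of mean FPKM over the 6 knockout and wild-type libraries, with the number of tested genes under each class. Higher calls reach 10% in the top class, and lower calls peak at 1.89% between 200 and 1000 FPKM.

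Most of the higher genes were also more abundant at 96 h than at 48 h within each of the 2 strains. Their median level was 91.0, 170 and 182 FPKM in knockout mycelium at 48, 72 and 96 h, against 12.5, 48.2 and 45.8 FPKM in wild type. Between 48 and 96 h, 67 of the 105 (63.8%) gained at least 2-fold in the knockout and 65 (61.9%) in wild type, where 7.65% and 11.6% of all tested genes did. The overexpression libraries enter the residual of the fit but neither side of the strain difference. In them, 52 of the 105 (49.5%) gained at least 2-fold, against 14.6% of all tested genes. The knockout at 48 h was above wild type at 96 h for 90 of the 105 genes (85.7%) and for 57.2% of all tested genes. The strain difference and the changes with time share libraries. A time course in overexpression like that of the other strains also keeps the residual small and so favours a call. These counts therefore describe the genes and are not a separate test.

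The lower genes took less uniform courses. Their median level was 23.9, 24.7 and 17.0 FPKM in knockout mycelium at 48, 72 and 96 h, against 79.1, 77.4 and 55.0 FPKM in wild type. Between 48 and 96 h, 11 of the 86 gained at least 2-fold and 17 lost as much in the knockout, and 19 gained and 26 lost in wild type. All tested genes lost 2-fold in 10.3% of cases in the knockout and 7.78% in wild type, while the lower genes did so in 19.8% and 30.2%. In overexpression, the 86 lower genes had median levels of 62.3, 54.2 and 45.8 FPKM and the 105 higher genes 12.9, 33.0 and 32.5 FPKM at 48, 72 and 96 h. Single lower genes took different positions in overexpression. KFH48817.1 had 549, 1050 and 380 FPKM in overexpression, below the knockout at each time. KFH42220.1 had 309, 79.8 and 87.5 FPKM, between the strains at each time, as the medians of the lower genes were. KFH44146.1 had 536, 1600 and 2240 FPKM, above the knockout at each time and above wild type at 48 and 96 h. All 3 overexpression libraries lay below all 6 others for 2 of the 86 genes and above them for 4.

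**Figure D4:**
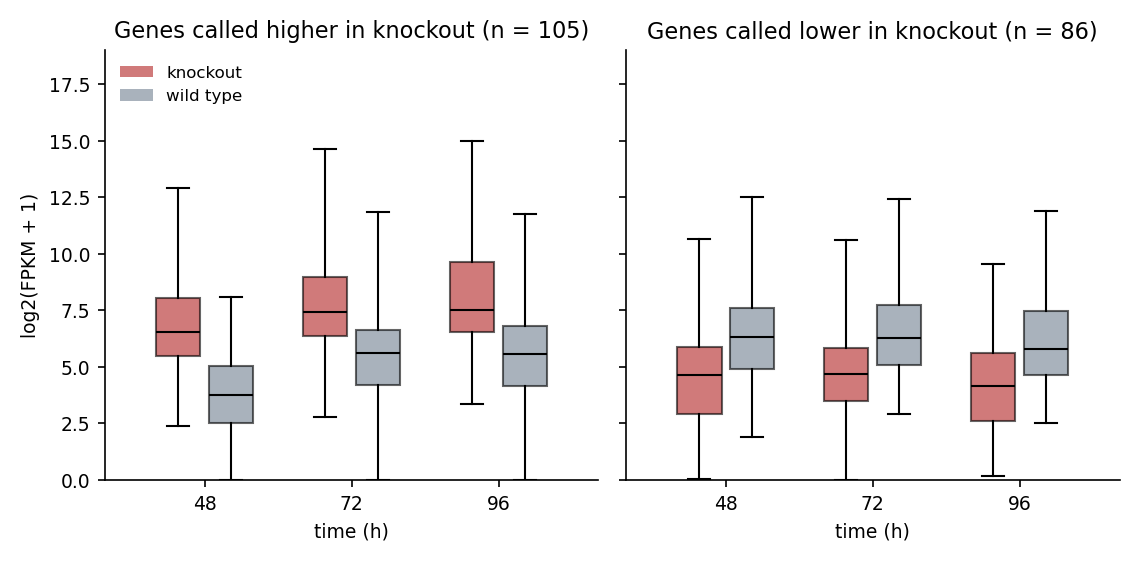
Box plots of log2(FPKM + 1) by culture time in h for the 105 genes called higher (left) and the 86 called lower (right), knockout in red beside wild type in grey, with the median, quartiles and full range over genes in 1 library each. The higher genes lie lowest in wild type at 48 h, with a median of 12.5 FPKM against 91.0 FPKM in the knockout, and both strains lie higher at 72 and 96 h.

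Values of the strains did not overlap for 87 of the 105 higher genes (82.9%) and 75 of the 86 lower genes (87.2%). These genes were called for a strain difference on the same libraries, so large shares follow from the choice and are not a test. Among all tested genes the 3 knockout libraries lay above the 3 wild-type libraries for 792 (9.48%) and below them for 571 (6.83%). With median-of-ratios rescaling these were 669 and 673, and with quantile normalisation 630 and 678, so the excess of genes above wild type was not kept there. It was kept with equal summed values (715 and 603) and with a filter at 10 FPKM (698 and 503), and so depends on the scaling. A difference of at least 2-fold in the same direction at all 3 times was seen for 129 genes higher in the knockout (1.54%) and 112 lower (1.34%). Of these, 41 higher and 49 lower genes did not pass the test.

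KFH43817.1 and KFH40338.1 were 2 of 3 genes listed at 0 in all wild-type libraries and at 1 FPKM or more in all knockout libraries. KFH43817.1 had 6.03, 8.70 and 7.13 FPKM in knockout mycelium at 48, 72 and 96 h, and was also at 11.7 FPKM in overexpression at 96 h. KFH40338.1 had 4.14, 5.94 and 9.96 FPKM in the knockout. KFH40338.1 was among the genes called higher (limma adjusted p = 0.0374), while KFH43817.1 was not called (0.123 in limma). Both were picked for this same strain difference and met the filter through their knockout values alone. Their adjusted p-values therefore lend the difference no separate support. All 3 genes stayed between 3.80 and 9.96 FPKM in the knockout. Of the values above 0, 1 of KFH43817.1 and 2 of KFH40338.1 equal that of another gene in the same library in every digit.

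At single times the balance of directions differed. At 48 h, 840 genes were at least 2-fold higher in the knockout and 422 at least 2-fold lower, or 10.1% and 5.05% of those tested. At 72 h there were 392 higher and 734 lower (4.69% and 8.78%), and at 96 h 572 and 646 (6.84% and 7.73%). Each count compares 1 library with 1 library, so it has no replicate check and no p-value. The median log2 difference over all tested genes was 0.113 at 48 h, 0.0046 at 72 h and 0.0124 at 96 h. Quantile normalisation gave 584 higher and 554 lower at 48 h, so the excess at that time depends on the scaling. The knockout at 48 h also had the fewest genes at 0 of the 6 libraries, 302, and wild type at 48 h the most, 503; their part in the excess was not tested. At 72 h lower genes outnumbered higher ones under each of the 5 alternatives tried, with 475 higher and 636 lower after quantile normalisation as the closest counts.

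**Figure D5:**
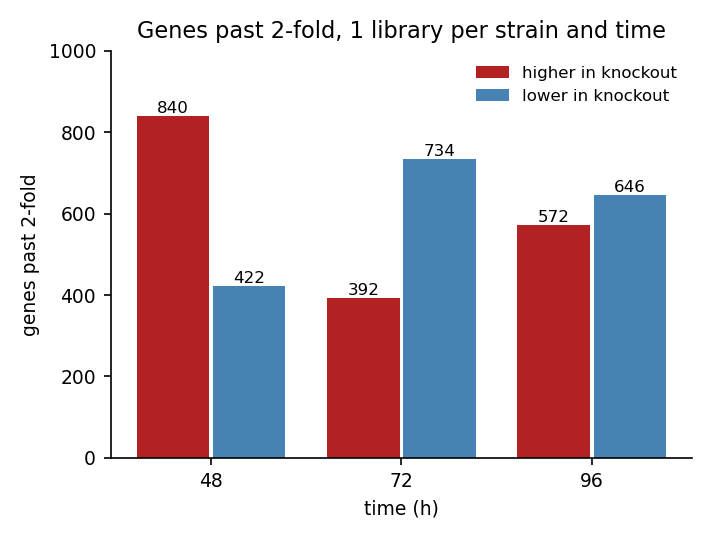
Number of tested genes at least 2-fold higher (red) or lower (blue) in the knockout, relative to wild type of the same time, at 48, 72 and 96 h, on log2(FPKM + 1) with 1 library per strain and time. Higher genes prevail at 48 h (840 against 422) and lower genes at 72 h (734 against 392).

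The genes that stood out at 48 h, beyond those named above, were KFH44385.1 and KFH41531.1 on the higher side. KFH44385.1 had 742 FPKM in the knockout at 48 h, against 4.10 FPKM in wild type, a log2 difference of 7.19. KFH41531.1 had 751 FPKM in the knockout, against 4.90 FPKM in wild type, a log2 difference of 6.99. Its difference was smaller at the later times, with 2500 and 4180 FPKM in knockout mycelium at 72 and 96 h, against 414 and 362 FPKM in wild type. Both were called over the 3 times (limma adjusted p = 0.0183 and 0.0417), but not in every fit with a library left out. On the lower side, KFH46205.1 had 44.2 FPKM in the knockout at 48 h, against 889 FPKM in wild type. It was called over the 3 times with a log2 effect of -3.07 ± 0.37 (SE; limma adjusted p = 0.0111), whichever library was left out. KFH48011.1 had 2.26 FPKM in the knockout at 48 h, against 59.4 FPKM in wild type, and was not called over the 3 times (limma adjusted p = 0.0816).

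At 72 h the largest higher difference was that of KFH42884.1, described below with the slopes, at 547 FPKM in the knockout, against 9.03 FPKM in wild type. Among genes not named under another pattern, the next were KFH44392.1 and KFH40707.1. KFH44392.1 had 139, 861 and 484 FPKM in knockout mycelium at 48, 72 and 96 h, against 6.93, 29.6 and 22.2 FPKM in wild type. It was called whichever library was left out, with a log2 effect of 4.45 ± 0.44 (SE; limma adjusted p = 0.00572). KFH40707.1 had 1.72, 50.3 and 52.4 FPKM in the knockout, against 0, 0.961 and 2.28 FPKM in wild type, and was not called (limma adjusted p = 0.0816). The lower side at 72 h held KFH46527.1 and KFH45536.1, each highest in wild type at 72 h. KFH46527.1 had 16.9, 12.2 and 7.26 FPKM in knockout mycelium at 48, 72 and 96 h, against 59.7, 1940 and 230 FPKM in wild type. KFH45536.1 had 1.06, 0.769 and 1.42 FPKM in the knockout, against 5.81, 320 and 34.3 FPKM in wild type. Both were near the knockout levels in overexpression, at 7.28 to 35.4 and 0.132 to 0.899 FPKM, and neither was called (limma adjusted p = 0.0703 and 0.103). For both genes wild type at 72 h stood far above all 8 other libraries.

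At 96 h KFH42884.1, KFH42174.1 and, on the lower side, KFH46527.1 had larger log2 differences (10.01, 6.81 and -4.81) than the other genes described for this time, which were taken from those not named under another pattern or at an earlier time. KFH44385.1, named at 48 h, had a log2 difference of 5.66 at 96 h and KFH43136.1 one of 5.50. KFH45377.1 had 564 FPKM in the knockout at 96 h, against 5.99 FPKM in wild type, after 171 and 58.7 FPKM in knockout mycelium at 48 and 72 h, against 45.6 and 13.8 FPKM in wild type. It was not called (limma adjusted p = 0.144). KFH43136.1 had 226, 434 and 1700 FPKM in knockout mycelium at 48, 72 and 96 h, against 10.8, 31.9 and 36.6 FPKM in wild type. It was called with a log2 effect of 4.50 ± 0.62 (SE; limma adjusted p = 0.0168), but not in every fit with a library left out. On the lower side, KFH43989.1 had 50.5, 15.9 and 4.04 FPKM in the knockout, against 21.6, 171 and 135 FPKM in wild type, and so lay above wild type at 48 h and below it later. It was not called (limma adjusted p = 0.316). KFH45390.1 had 0.0415, 2.65 and 0.112 FPKM in the knockout, against 7.11, 44.3 and 27.1 FPKM in wild type. It was called with a log2 effect of -3.75 ± 0.45 (SE; limma adjusted p = 0.0111), but not in every fit with a library left out. Its overexpression values of 0.0563, 1.43 and 1.82 FPKM were also below all wild-type values.

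The slope comparison asks whether the strain difference itself widened or narrowed between 48 and 96 h. Among the 8357 tested genes, differences at least 2-fold in both directions at different times were seen for 230 genes, with 1 library per strain at each time. Of these, 96 (1.15% of those tested) were higher in the knockout at 48 h and lower at 96 h, and 26 (0.311%) the reverse; with quantile normalisation these were 69 and 45. The 96 genes had median levels of 48.67, 30.39 and 10.89 FPKM in knockout mycelium at 48, 72 and 96 h, against 11, 36.05 and 44.65 FPKM in wild type. The choice of these genes by their differences at 48 and 96 h largely fixes these medians, so they are a description only. Their median levels in overexpression, 26.3, 30.7 and 21.99 FPKM, lay closer together.

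When a slope per 24 h was fitted for each strain, 0 genes (0%) differed in slope between the knockout and wild type at an adjusted p under 0.05 in limma, and 459 did at an unadjusted p under 0.05 (5.49% of those tested). The lowest adjusted p was 0.128. The fit also called none of the slope changes put into simulated data, which were smaller than the largest slope differences estimated here. The 0 calls therefore do not show that slopes were equal. This fit puts any curvature of the time course that the strains share into the residual. A fit chosen after seeing the data, with a shared time course plus a slope per strain, leaves 2 residual degrees of freedom and called 1 gene, KFH44715.1 (adjusted p = 0.0229 in limma), with 632 at an unadjusted p under 0.05. KFH44715.1 had 93.7, 31.0 and 0 FPKM in knockout mycelium at 48, 72 and 96 h, against 0, 24.04 and 22.7 FPKM in wild type. It is named because it was the only call, after its values were seen, and 1 of its values above 0 equals that of another gene in the same library.

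The smallest p-values for a slope higher in the knockout, in the planned fit, belonged to KFH42884.1 and KFH45117.1. KFH42884.1 had 6.08, 547 and 6420 FPKM in knockout mycelium at 48, 72 and 96 h, against 28.0, 9.03 and 5.22 FPKM in wild type. The knockout values were higher at each later time and the wild-type values lower, and the gene was at 0.845 to 1.80 FPKM in overexpression. The difference of slopes was 6.02 log2 units per 24 h (SE 0.51), with a limma adjusted p of 0.128 that missed the threshold. KFH45117.1 had 0.289, 3.35 and 9.66 FPKM in the knockout, against 7.06, 4.37 and 4.15 FPKM in wild type, and missed it as well (limma adjusted p = 0.673).

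In the other direction, KFH40551.1 had 4330, 920 and 250 FPKM in knockout mycelium at 48, 72 and 96 h, against 147, 235 and 281 FPKM in wild type. The strains differed widely at 48 h and were close at 96 h, with a slope difference of -2.52 log2 units per 24 h (SE 0.25, limma adjusted p = 0.173). In overexpression KFH40551.1 was also lower at each later time, at 3670, 393 and 67.5 FPKM. KFH44798.1 had 539, 199 and 85.8 FPKM in the knockout, against 131, 154 and 151 FPKM in wild type (limma adjusted p = 0.673 for the slope).

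Direct neighbours in identifier number were counted for the called genes. The sources used here do not say that number order is genome order. Of the 185 tested direct neighbours of higher genes, 4 were themselves higher (2.16%, against 1.26% of all tested genes). Of the 160 neighbours of lower genes 0 were lower, against 1.03% of all tested genes. Whether these counts differ from the shares over all tested genes was not tested. The higher genes formed 2 runs of 2 genes. One was KFH42174.1 with KFH42175.1, which had 78.8, 98.5 and 93.6 FPKM in the knockout and 40.7, 37.2 and 42.0 FPKM in wild type, a log2 effect of 1.15 ± 0.22 (SE; limma adjusted p = 0.0485). KFH42175.1 was not called in every fit with a library left out. The densest stretch of 25 consecutive identifiers held 6 higher genes, among them KFH44385.1 and KFH44392.1, while 75.9% of all 8875 such stretches held none. The stretch was picked after its values were seen. Of its 23 tested genes, 14 had a positive log2 fold change, and the 17 that were not called had a median of -0.04.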

How the data were processed

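Mycelium was frozen in liquid nitrogen, its RNA was harvested with Trizol, and libraries from polyadenylated RNA were sequenced by Illumina protocols, per the labels. The submitters' processing notes name CASAVA and HISAT2 2.0.5 without roles. Neither the genome build, the annotation nor the counting step is stated in the labels. The authors deposited 1 FPKM value per gene and library, normalised to transcript length and library size; the header names no unit, and the values were read as FPKM because they are not whole and sum to different totals. Each of the 9 columns carried the name of its library, and 0 were unmatched.

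With a pseudocount of 1, log2(FPKM + 1) was computed for genes reaching 1 FPKM in at least 3 of the 6 knockout and wild-type libraries. Strain and time entered as factors in limma 3.58.1 (R 4.3.3) over all 9 libraries, with the prior variance following the mean level. This gives 4 residual and 3.34 prior degrees of freedom, where the 6 libraries alone would leave 2 residual ones. Tests were two-sided, with Benjamini-Hochberg adjustment over the 8357 genes. Slopes came from a second model with 3 residual degrees of freedom. Both fits were tested on simulated data and returned the sizes put in. The slope fit called none of the simulated slope changes, so its count of calls says little on changes of those sizes. The largest slope differences estimated in the data were larger than those simulated. Scaling, pseudocount, filter, prior and left-out libraries were varied.

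The genes, lists and tests were chosen with earlier results of these data known. Named genes are the 2 each way, where there were any, with the largest fold change among calls kept with each library left out, the largest FPKM difference among calls, the smallest slope p, the largest difference at each time (10 FPKM or more in the higher library, above 0 in both, leaving out genes already named by an earlier part of the rule), the highest level where the other strain is at 0, and the longest identifier run.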

Additional observations from a re-analysis of the deposited data

How the results depend on the processing

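No paired analysis by replicate number was possible because the labels give none; time serves as the pairing factor instead. With no time block, 12 genes were called higher and 9 lower in limma, against 105 and 86. Without all 48 h libraries 58 were higher and 69 lower, so that lower calls outnumbered higher ones, without all 72 h libraries 14 higher and 3 lower, and without all 96 h libraries 10 and 2. Leaving out 1 of the 9 libraries gave 28 to 137 higher and 15 to 121 lower genes, and 0 to 2 slope calls. A shared time course plus a slope per strain gave 1 slope call. The 6 knockout and wild-type libraries alone gave 93 higher and 71 lower, of which 78 and 49 were among the 105 and 86. Scaling, pseudocount, filter and prior alternatives gave 75 to 106 higher and 67 to 98 lower genes and 0 slope calls. Leaving out 1 of the 6 libraries raised the genes without overlap to between 1158 and 1466 above and between 762 and 1277 below wild type, which fewer libraries bring about by construction. Genes lower at 48 h and higher at 96 h numbered 45 after quantile normalisation and 17 with a filter at 10 FPKM, against 26. No log2 fold change of a gene named for its fold or FPKM difference changed sign. The causes of these shifts were not tested. The read number behind each value is unknown, which limits statements on low genes most.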
